A study of Rattus norvegicus with 4 samples.

Results

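The Sprouty and Spred genes encode feedback inhibitors of receptor tyrosine kinase signalling. The 6 genes described here, Spry1, Spry2, Spry4, Spred1, Spred2 and Spred3, were chosen by their symbols from a deposited table of 17768 genes, and all 6 were found. They were measured in 4 RNA sequencing libraries of NRK-52E, a long-established rat kidney cell line whose cells the labels call proximal tubular epithelium. By title, 2 libraries are lv_nc and 2 are lv_Mettl3. The labels describe a stable line overexpressing METTL3, made by infection with a lentivirus (vector pLVX-IRES-Puro) carrying murine Mettl3 cDNA. The virus was collected 48 h after transfection of HEK 293T cells, and infected cells were selected at 0.5 mg/ml puromycin and kept at 0.25 mg/ml. The labels give serum at 10% for all 4 libraries. The same protocol text stands on all 4 libraries, all carry the treatment label untreated, and the labels do not spell out nc. Neither the number of clones nor separate cultures for the replicates are stated, so the spread between replicates may be technical. Mettl3 encodes the catalytic subunit of the enzyme that writes N6-methyladenosine on RNA. The study's title poses the question of which genes differ on METTL3 overexpression.

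When a growth factor binds its receptor tyrosine kinase, adaptor proteins recruit exchange factors that load RAS with GTP, and RAS starts the RAF, MEK and ERK kinase relay. ERK activity induces transcription of several of its own inhibitors, Sprouty genes among them, so that their mRNA is often read as a trace of recent ERK signalling. Sprouty and Spred proteins share a cysteine-rich C-terminal domain. Spred proteins also carry an N-terminal EVH1 domain, through which Spred1 brings the RAS GTPase activator neurofibromin to the membrane. In the developing kidney Spry1 restrains signalling by the receptor RET during ureteric bud outgrowth.

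The family was proposed with results of this same comparison known. The values of the 6 genes by group are therefore given as a description, with fold changes and standard errors (SE) and no p-value for a single gene. How many of the 6 passed each test is stated beside the share of all genes that did, and nothing is read from it. Values are normalized read counts, that is, gene reads divided by 1 size factor per library. Recovered gene reads per library ran from 15068898 to 16622255, and mitochondrially encoded genes took 2.05% to 2.36% of them. Mettl3 itself did not separate the groups, with 719 and 767 in lv_nc and 757 and 700 in lv_Mettl3 (log2 fold change -0.03, SE 0.11, limma adjusted p = 0.931). The titled gene thus does not check the labels, and each direction given here compares the libraries labelled lv_Mettl3 with those labelled lv_nc. How reads of the murine cDNA were counted was not analysed here. Of 5 epithelial markers 3 were in the table, with Krt8 at 28296 to 33065, Tjp1 at 10903 to 12378 and Cdh1 at 0.923 to 8.79. Of 8 proximal tubule markers 6 were in the table. Ggt1 was at 2412 and 2530 in lv_nc and at 3294 and 3757 in lv_Mettl3. Over the 4 libraries Slc5a2 was at 20.3 to 39.3, Anpep at 9.54 to 24.8, Cubn at 7.42 to 20.3, Aqp1 at 0 to 6.46 and Lrp2 at 0 to 1.95.

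RefSeq promoter windows of the GRCr8 assembly, from 250 bases before to 50 bases after each start site, were matched by symbol for all 6 genes, with a pair of start sites for Spry2. Those of the 3 Sprouty genes, whose values differed most between the groups, and that of Spred2 are printed 5′ to 3′ on the strand of the gene. Capitals mark matches to the motifs searched. The windows lie at chr2:122485097-122485396, plus strand (Spry1), chr15:89111877-89112176, minus strand (Spry2, its first listed start), chr18:30702497-30702796, minus strand (Spry4) and chr14:98350327-98350626, plus strand (Spred2).
Spry1: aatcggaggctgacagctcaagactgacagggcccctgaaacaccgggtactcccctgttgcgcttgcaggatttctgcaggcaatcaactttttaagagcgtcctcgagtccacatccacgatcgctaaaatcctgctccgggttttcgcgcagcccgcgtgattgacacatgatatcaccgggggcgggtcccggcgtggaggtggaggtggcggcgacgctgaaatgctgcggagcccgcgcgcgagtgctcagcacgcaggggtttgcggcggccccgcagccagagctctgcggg
Spry2: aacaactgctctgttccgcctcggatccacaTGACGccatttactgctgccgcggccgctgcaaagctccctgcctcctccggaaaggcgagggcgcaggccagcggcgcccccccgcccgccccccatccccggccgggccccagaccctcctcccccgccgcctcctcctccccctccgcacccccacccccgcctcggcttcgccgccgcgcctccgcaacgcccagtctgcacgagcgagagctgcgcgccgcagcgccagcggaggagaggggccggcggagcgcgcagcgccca
Spry4: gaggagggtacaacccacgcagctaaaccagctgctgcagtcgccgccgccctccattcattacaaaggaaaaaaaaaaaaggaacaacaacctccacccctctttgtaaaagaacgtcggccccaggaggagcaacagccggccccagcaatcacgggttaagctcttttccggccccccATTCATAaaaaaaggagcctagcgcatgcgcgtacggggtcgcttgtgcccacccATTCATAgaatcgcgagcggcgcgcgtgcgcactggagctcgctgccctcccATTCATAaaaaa
Spred2: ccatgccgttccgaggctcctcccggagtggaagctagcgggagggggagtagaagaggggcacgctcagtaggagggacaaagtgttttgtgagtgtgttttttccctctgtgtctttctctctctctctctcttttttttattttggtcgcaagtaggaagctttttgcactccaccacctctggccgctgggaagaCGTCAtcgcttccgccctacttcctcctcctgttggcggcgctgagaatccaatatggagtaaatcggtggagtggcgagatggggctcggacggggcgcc
The motifs were searched on both strands by the exact patterns given here, so sites of the same factors with other letters were not marked. None of the 7 windows held the AP-1 motif TGANTCA, the ETS motif CCGGAAG or a CArG box, which 7.33%, 8.75% and 1.64% of 33469 rat promoter windows of the same length hold. The CRE half-site TGACG occurred once in Spry2 and once, on the opposite strand, in Spred2, and 21.2% of all windows hold it. The Spry4 window held the letters ATTCATA 3 times, at positions -69 to -63, -14 to -8 and 38 to 44 counted from the start site at 0. That repeat was searched for after the sequence had been seen. One or more copies are in 2.81% of all windows, and 3 or more copies in 4 of the 33469 windows (0.012%). The first Spry2 window is rich in G and C (76.3%, against a median of 51.7% over all windows). These matches describe the letters of the windows only. The deposited table places Spry4 on the plus strand in its own build, which is not given in the sources used here, whereas GRCr8 has it on the minus strand. No coordinates were converted.

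Spry1 had the largest difference of the family. Spry1 (ENSRNOG00000025371, chromosome 2, 124400679 to 124405331 in the deposited table) had a normalized count of 64.5 in lv_nc replicate 1 and 73.9 in replicate 2, against 193 in lv_Mettl3 replicate 1 and 206 in replicate 2. Both lv_Mettl3 libraries lay well above both lv_nc libraries, the lower of them at 2.61 times the higher lv_nc library, while replicates differed by at most 1.15 times. In bulk RNA, more cells with a transcript and more transcript per cell cannot be told apart, here and for the genes that follow. The means were 69.2 ± 6.63 and 199 ± 8.97 (SD, n = 2 libraries per group), a limma log2 fold change of 1.52 (SE 0.21) on the log2(value + 1) scale. Spry1 was also the member with the fewest reads, 66 and 80 in lv_nc. Exact Poisson intervals of 95%, which cover counting error only, ran from 58.6 to 91.9 in lv_nc replicate 2 and from 166 to 223 in lv_Mettl3 replicate 1, on the normalized scale.

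Spry2, which binds the ubiquitin ligase CBL and the adaptor GRB2 after growth factor stimulation, averaged 2.08 times its lv_nc mean in the lv_Mettl3 libraries. Spry2 (ENSRNOG00000010058, chromosome 15, 90172975 to 90175802) had normalized counts of 353 (lv_nc replicate 1), 272 (lv_nc replicate 2), 665 (lv_Mettl3 replicate 1) and 638 (lv_Mettl3 replicate 2). The groups did not overlap, and the lv_nc libraries lay further apart (1.30 times) than the lv_Mettl3 libraries (1.04 times). The means were 313 ± 56.8 and 651 ± 19.2, a limma log2 fold change of 1.07 (SE 0.17). Without 1 library the log2 fold change lay between 0.88 and 1.25. In the deposited coordinates Spry2 lies inside the span given for Mycbp2 on the same strand (87506959 to 93868301), so a share of its reads could be counted with that gene or left out.

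Spry4, which also restrains activation of the ERK relay by growth factors, had the highest read count of the family and a smaller difference. Spry4 (ENSRNOG00000013851, chromosome 18, 32594958 to 32609864) had normalized counts of 599 (lv_nc replicate 1), 726 (lv_nc replicate 2), 975 (lv_Mettl3 replicate 1) and 1011 (lv_Mettl3 replicate 2). Both lv_Mettl3 libraries were above both lv_nc libraries, by 1.34 times at the closest. The means were 662 ± 89.6 and 993 ± 24.9, a limma log2 fold change of 0.59 (SE 0.13). Here lv_nc replicate 2 was the higher control library, whereas for Spry2 it was the lower one.

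The 3 Spred genes were each higher by 1.26 to 1.35 times in ratio of means, with groups that did not overlap but lay close together. Spred1, whose human counterpart is mutated in Legius syndrome, had normalized counts of 269 and 232 in lv_nc and 296 and 357 in lv_Mettl3 (means 250 ± 26.1 and 326 ± 42.9, log2 fold change 0.38, SE 0.17). Its closest libraries, lv_nc replicate 1 and lv_Mettl3 replicate 1, were 1.10 times apart, which was less than the gap of 1.21 times between the lv_Mettl3 replicates. Counting intervals for these closest libraries overlapped, 238 to 302 and 262 to 333. Spred1 lies on chromosome 3 (108795235 to 108857556, ENSRNOG00000005209).

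Spred2, like Spred1 a suppressor of RAS to ERK signalling, had normalized counts of 376 and 330 in lv_nc and 442 and 450 in lv_Mettl3. Its lv_Mettl3 libraries were nearly equal, and the means were 353 ± 32.3 and 446 ± 5.24 (log2 fold change 0.34, SE 0.13). Spred3, the member described as lacking a working KIT-binding domain, had normalized counts of 203 and 218 in lv_nc and 264 and 304 in lv_Mettl3. Its means were 211 ± 10.4 and 284 ± 28.2 (log2 fold change 0.43, SE 0.16), and its closest libraries were 1.21 times apart. Spred2 lies on chromosome 14 (104191517 to 104290456, ENSRNOG00000004888) and Spred3 on chromosome 1 (88103719 to 88112683, ENSRNOG00000051915).

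**Figure D1:**
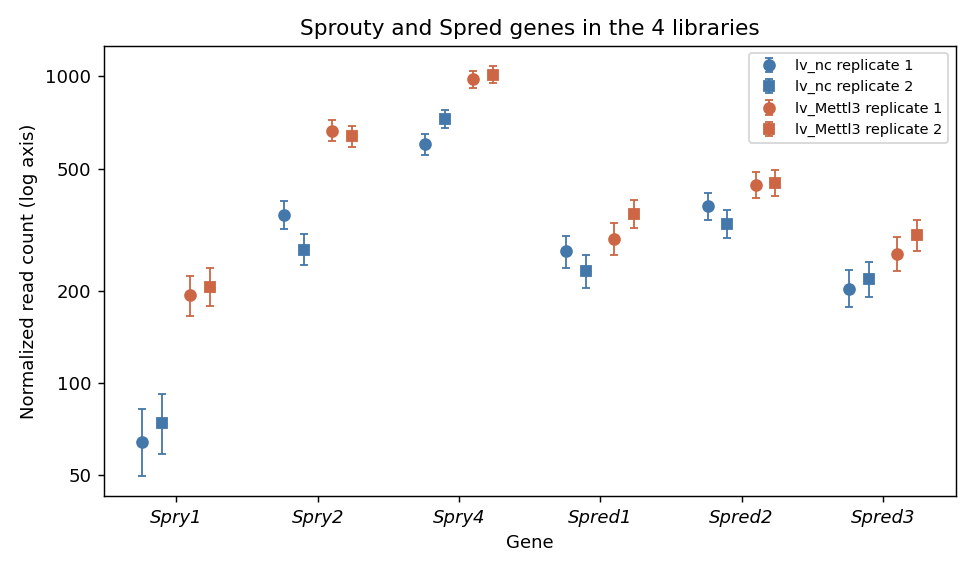
Normalized read count (log axis) of each Sprouty and Spred gene in the 4 libraries, with circles for replicate 1, squares for replicate 2 and bars for the exact Poisson interval of 95% on the reads, which covers counting error only. Spry1 goes from 64.5 and 73.9 in lv_nc to 193 and 206 in lv_Mettl3, while Spred1 has its closest libraries at 269 and 296.

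Across the family, all 6 genes had both lv_Mettl3 libraries above both lv_nc libraries, as did 23.5% of the 16391 genes tested. Because the 6 were proposed with this comparison in view, nothing is read from that count. The median log2 fold change of the 6 was 0.51, beside 0.01 over all genes tested. The Sprouty genes spanned 0.59 to 1.52 and the Spred genes 0.34 to 0.43, so with all 4 libraries the ranges of the branches did not overlap. Without lv_nc replicate 1 they did, with Spry4 at 0.45 and Spred1 at 0.49 in limma. The order of the branches thus depended on that library, and it was seen, not tested. In the authors' deposited table the log2 fold changes of Spry1, Spry2 and Spry4 are 1.53, 1.06 and 0.58, and those of Spred1, Spred2 and Spred3 are 0.38, 0.34 and 0.43.

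**Figure D2:**
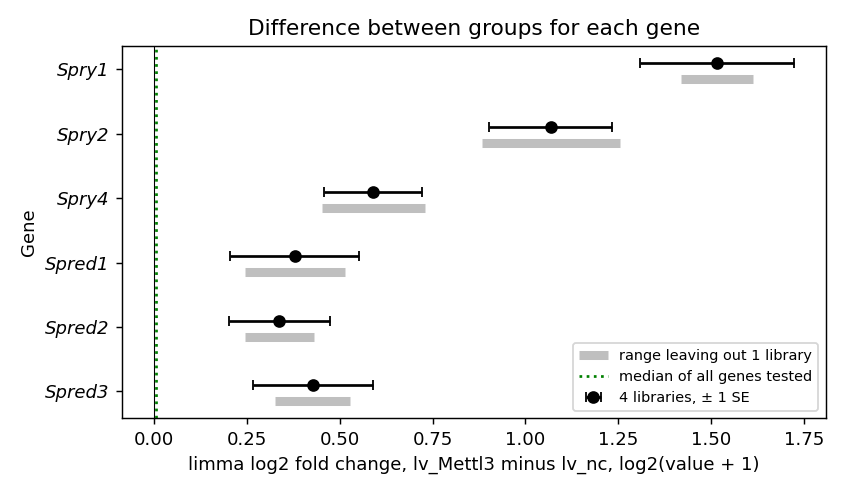
limma log2 fold change of each gene, lv_Mettl3 minus lv_nc on the log2(value + 1) scale, with bars of 1 SE and grey bands for the range of values when 1 library is left out. The point for Spry1 lies at 1.52 and that for Spred2 at 0.34.

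limma called 0 of the 6 genes at an adjusted p under 0.05, where it called 0.0183% of genes tested (3 of 16391), and 4 of the 6 had an unadjusted p under 0.05, as did 10.5% of genes tested (1716). DESeq2 on the recovered reads called 2, Spry1 and Spry2, where it called 2.52% of genes (318 of 12601, 1.45% higher and 1.07% lower). edgeR's quasi-likelihood test called 0, beside 0.0381% of genes (5 of 13113), and 5 had an unadjusted p under 0.05, as did 11.8% of genes (1542). These counts describe values that also led to the choice of the genes. The DESeq2 count of members depended on the libraries kept, as did the count over all genes. Leaving out 1 library leaves 1 in its group. The DESeq2 log2 fold change of Spry1 was then 1.57 and 1.48 without lv_Mettl3 replicates 1 and 2. It was 1.43 and 1.62 without lv_nc replicates 1 and 2. For Spry2 these values were 1.02, 1.09, 1.25 and 0.88 in the same order.

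**Figure D3:**
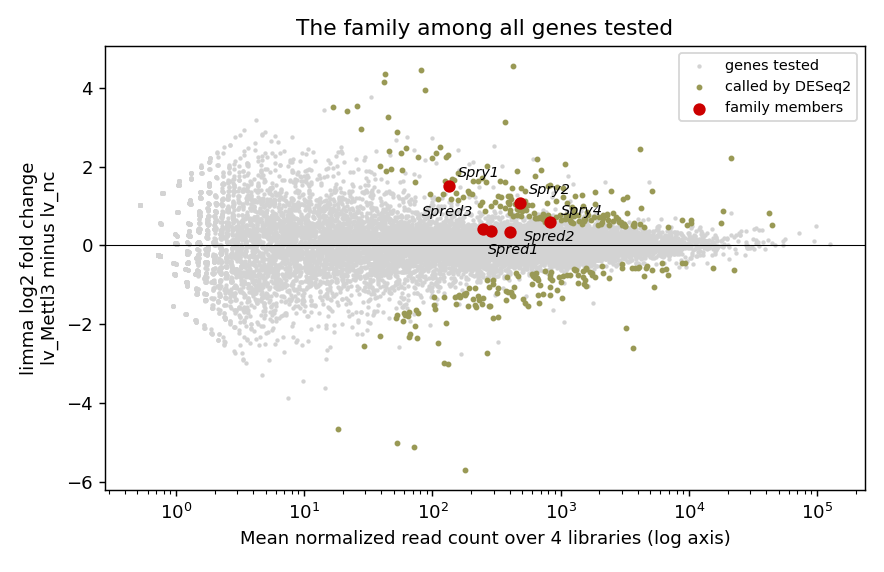
Mean normalized read count (log axis) against limma log2 fold change for the 16391 genes tested (grey), those called by DESeq2 (olive) and the 6 family genes (red). Spry1 and Spry2 lie among the DESeq2 calls at 1.52 and 1.07, and the 3 Spred genes lie inside the grey cloud between 0.34 and 0.43.

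Levels were compared between genes only after scaling to length, as RPKM, that is, recovered reads divided by the deposited gene length and by the library's total gene reads. In lv_nc, Spred2 stood first (13.4 ± 0.970), followed by Spry2 (11.1 ± 1.81), Spred1 (9.83 ± 0.841), Spry4 (8.97 ± 1.38), Spred3 (5.78 ± 0.394) and Spry1 (1.79 ± 0.205), all SD with n = 2. The library ranges of Spry2 and Spred1 overlapped there, as did those of Spred1 and Spry4, and the other neighbours did not overlap. In lv_Mettl3, Spry2 stood first (22.5 ± 0.688), followed by Spred2 (16.5 ± 0.176), Spry4 (13.1 ± 0.314), Spred1 (12.5 ± 1.63), Spred3 (7.57 ± 0.743) and Spry1 (5.00 ± 0.220). Only Spry4 and Spred1 overlapped in that group. Spry2 and Spred2 thus changed places at the top of the order, and Spry1 was last in both groups. Over the 4 libraries the mean of Spry2 exceeded that of 66.7% of the genes tested and the mean of Spry1 that of 38.1%.

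Summed on this scale, the Sprouty genes were at 40.7 and 40.5 in lv_Mettl3 against 22.0 and 21.7 in lv_nc, 1.86 times in ratio of means. The Spred sum was 34.7 and 38.3 against 30.0 and 28.0, or 1.26 times. Sprouty genes made up 42.3% and 43.6% of the family level in lv_nc and 54.0% and 51.4% in lv_Mettl3. Neither sum overlapped between the groups, since none of the genes in them did, so this adds nothing to the single genes. Spry2 alone went from 23.8% and 19.7% of the family level to 30.5% and 28.0%, while the share of Spry4 was 15.4% and 20.0% in lv_nc and 17.0% and 16.9% in lv_Mettl3. Spry3, a family gene outside the 6, had 3 and 2 reads in lv_nc and 7 and 1 in lv_Mettl3, too few to compare.

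**Figure D4:**
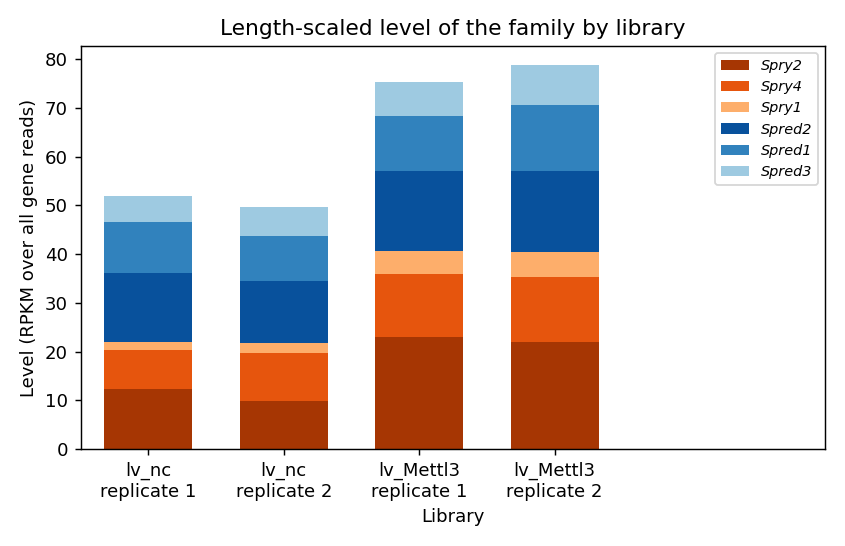
Level of each gene in RPKM (reads scaled to gene length and to the library's total gene reads), stacked by library, with Sprouty genes in orange and Spred genes in blue. The Sprouty part is 22.0 and 21.7 in lv_nc and 40.7 and 40.5 in lv_Mettl3.

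Other genes with nearly the same profile were looked up for Spry2 and Spred2, the most abundant member of each branch by length-scaled level. Likeness was the Euclidean distance between log2(value + 1) profiles centred over the 4 libraries, among 9209 named genes whose mean normalized count reached 100. The nearest to Spry2 were Psen2, a presenilin of the gamma-secretase complex (distance 0.07, with 285 and 229 in lv_nc and 526 and 534 in lv_Mettl3), Cd55, a complement regulator (0.15), and Cnksr2, a scaffold protein of RAS signalling (0.19). The nearest to Spred2 were Nmt2, an N-myristoyltransferase (0.03), the chaperone partner Dnajc1 (0.04) and Atf6, a sensor of the unfolded protein response (0.04). The median distance over all genes compared was 1.11 from Spry2 and 0.43 from Spred2.

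Around the family, 7 lists were drawn up in order of the pathway, with 126 symbols in all, of which 110 were tested by limma and 101 by DESeq2. limma called 0 of the 110, with 26 at an unadjusted p under 0.05, beside 10.5% of all genes tested. DESeq2 called 9 higher and 1 lower, beside 1.45% and 1.07% of all genes it tested. Below, rose and fell are used of genes that DESeq2 called. Of the list of receptor tyrosine kinases, DESeq2 called 1 of 10 tested, Epha2, an ephrin receptor that is itself induced by ERK. Epha2 rose from 2414 ± 800 to 4164 ± 283 (log2 fold change 0.79 ± 0.21 SE and adjusted p = 0.0109 by DESeq2, adjusted p = 0.442 by limma). The epidermal growth factor receptor gene Egfr had 1791 ± 130 in lv_nc and 1921 ± 20.7 in lv_Mettl3, and Erbb3 had 1993 ± 382 and 1803 ± 39.1. The list median was 0.10, with 7 of 13 genes above 0. limma called 0 of the 13, with 2 at an unadjusted p under 0.05, beside 10.5% of all genes. Epha2 was not called when either lv_Mettl3 library was left out.

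Among ligands, DESeq2 called 1 of 12 higher and 1 lower. Tgfa, a ligand of the epidermal growth factor receptor, rose from 245 ± 13.0 to 532 ± 131 (log2 fold change 1.12 ± 0.25 SE and adjusted p = 0.00116 by DESeq2, adjusted p = 0.373 by limma). Pdgfb, a platelet-derived growth factor chain, fell from 359 ± 107 to 139 ± 18.8 (log2 fold change -1.37 ± 0.30 SE and adjusted p = 0.000906 by DESeq2, adjusted p = 0.378 by limma). Hbegf, also a ligand of the epidermal growth factor receptor, had 1794 ± 305 and 2109 ± 41.0, and Pdgfc had 1590 ± 67.1 and 1584 ± 75.3. The list median was 0.13. limma called 0 of 16 ligands, with 4 at an unadjusted p under 0.05, beside 10.5% of all genes. The DESeq2 count of 2 ligands depended on the library left out, as did its count over all genes.

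The steps between receptor and ERK had no call by limma, DESeq2 or edgeR. Of 18 adaptors, exchange factors and RAS GTPase activators the median log2 fold change was -0.01, and 3 had an unadjusted limma p under 0.05. Shc1, an adaptor, had 5808 ± 569 in lv_nc and 5890 ± 185 in lv_Mettl3, and the phosphatase gene Ptpn11 had 3881 ± 711 and 4111 ± 124. Of 16 genes of the RAS, RAF, MEK and ERK core the median was 0.11, and 2 had an unadjusted limma p under 0.05. Map2k1, which encodes MEK, had 3688 ± 323 and 4210 ± 289, and Mapk3, which encodes an ERK, had 3969 ± 927 and 2991 ± 194. Of 18 known partners and modifiers of Sprouty and Spred proteins the median was -0.03, and 2 had an unadjusted limma p under 0.05. Nedd4, a ubiquitin ligase for Spry2, had 30846 ± 1627 and 29531 ± 676, and Cav1, the caveolin that binds family members, had 11767 ± 180 and 13121 ± 223. Over all genes tested, 10.5% had an unadjusted limma p under 0.05. Without lv_nc replicate 1, which leaves 1 library in that group, DESeq2 called some genes of these lists. It then also called more genes over the whole table.

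Of 15 other feedback inhibitors tested, DESeq2 called 1, which was higher, beside 1.45% of all genes. limma called 0, with 4 at an unadjusted p under 0.05, beside 10.5% of all genes. The median of these inhibitors was 0.13. Dusp4, a nuclear phosphatase of ERK, rose from 23.8 ± 3.64 to 92.5 ± 9.42 (log2 fold change 1.96 ± 0.51 SE and adjusted p = 0.00925 by DESeq2, adjusted p = 0.32 by limma). Dusp6, the cytoplasmic phosphatase of ERK, had 3345 and 3221 in lv_Mettl3 against 1547 and 750 in lv_nc. The groups of Dusp6 did not overlap, but the lv_nc libraries were far apart, and neither limma (adjusted p = 0.381) nor DESeq2 (adjusted p = 0.0815) called it. Pebp1, an inhibitor of RAF binding to MEK, had 5814 ± 111 and 5406 ± 357.

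Of 20 transcripts known to follow ERK activity, with family members left out, 16 had a log2 fold change above 0 and the median was 0.72. limma called 0, with 13 at an unadjusted p under 0.05 (10.5% of all genes), and DESeq2 called 8 of 18 tested, all higher (1.45% of all genes). Several of these genes were known to be higher when the list was drawn up, so its count is no independent evidence of its direction. Etv5, an ETS transcription factor, rose to 968 ± 41.7 from 292 ± 89.6 (DESeq2 adjusted p = 1.69e-10), and its relative Etv4 to 1516 ± 19.2 from 580 ± 239 (DESeq2 adjusted p = 4.46e-06). Fosl1, an AP-1 subunit, rose from 291 ± 49.9 to 760 ± 148 (DESeq2 adjusted p = 1.29e-06), and Phlda1 rose from 1576 ± 155 to 2674 ± 269 (DESeq2 adjusted p = 0.000539). Dusp4 and Epha2, above, and Ier3 and Plaur, named after their values were seen, made up the 8. The limma adjusted p of Etv5, Etv4, Fosl1 and Phlda1 lay between 0.267 and 0.378. Ccnd1, the cyclin that opens G1 progression, had 5399 ± 984 and 6417 ± 318, and Junb had 3799 ± 487 and 3570 ± 345. Besides Junb, the genes with a limma log2 fold change below 0 were Fos (-0.89, SE 0.37), Etv1 (-0.63, SE 0.40) and Egr1 (-0.57, SE 0.50). None of them was called, and the groups of Fos and Etv1 did not overlap. The DESeq2 count of this list depended on the library left out, as did its count over all genes. Over the 20 alternatives the adjusted p of the 8 pathway genes named as called reached 0.95 or more at its highest. Some alternatives leave 1 library in a group, so the lowest adjusted p is not given. The log2 fold change ranged from 0.48 to 1.17 for Epha2, 0.84 to 1.35 for Tgfa and -1.64 to -1.02 for Pdgfb. It ranged from 1.60 to 2.12 for Dusp4, 0.65 to 0.87 for Phlda1 and 1.01 to 1.88 for Etv4. For Etv5 the range was 1.44 to 2.08 and for Fosl1 1.17 to 1.58.

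**Figure D5:**
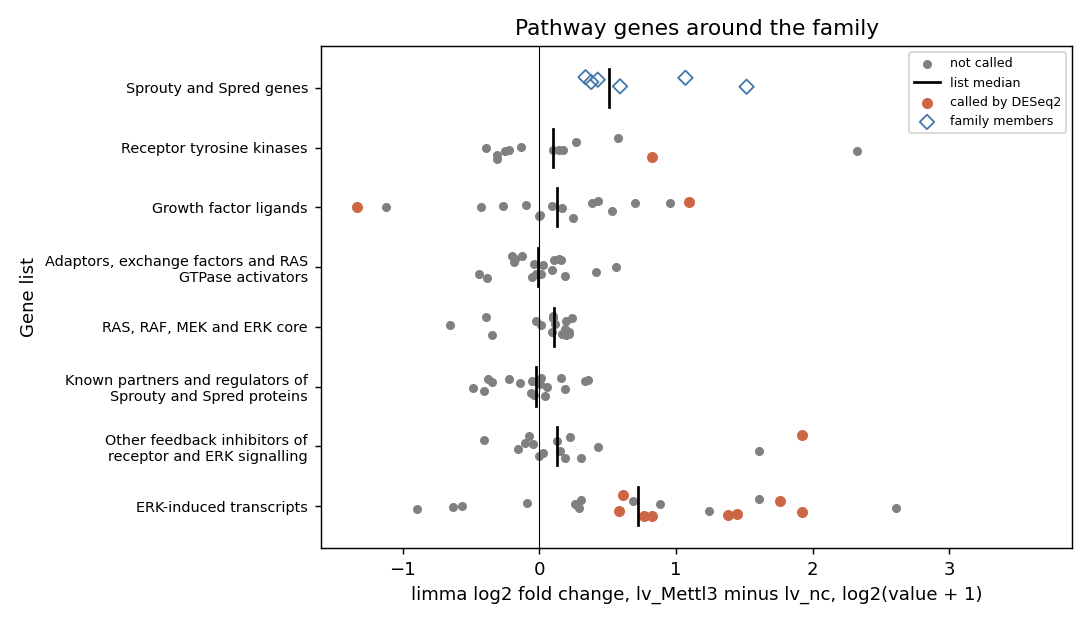
limma log2 fold change of each gene of the 7 pathway lists and of the 6 family genes (diamonds), with genes called by DESeq2 in orange, other genes in grey and a bar at each median. The adaptor, core and partner lists centre near 0 (medians -0.01, 0.11 and -0.03), and the ERK-induced list has its median at 0.72.

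Some genes listed as fibroblast and smooth muscle markers differed between the groups. Of 7 fibroblast and smooth muscle markers 5 were in the table, and their summed normalized count was 13424 to 17567 in lv_nc and 4549 to 5149 in lv_Mettl3. DESeq2 called 4 of these 5 lower (Col1a1, Col1a2, Col3a1 and Acta2), beside 1.07% of all genes, and none was at 0. The groups of Tagln overlapped. limma called 0 of the 5, with 4 at an unadjusted p under 0.05, beside 10.5% of all genes. Of 6 endothelial markers 3 were in the table, with sums of 14.8 to 17.6 in lv_nc and 9.54 to 25.8 in lv_Mettl3. Of 6 leukocyte markers 2 were in the table, with sums of 33.2 to 41.5 and 24.4 to 47.5. The proximal tubule markers summed to 2480 to 2601 in lv_nc and 3342 to 3837 in lv_Mettl3, most of it Ggt1. DESeq2 called 1 of 4 tested higher, Ggt1, beside 1.45% of all genes. limma called 0 of 5, with 1 at an unadjusted p under 0.05, beside 10.5% of all genes. The median log2 fold change of those 5 was -0.14, with 2 above 0. The part of the fibroblast marker and Ggt1 differences in the values of the Sprouty and Spred genes was not tested.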

How the data were processed

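RNA from 4 libraries was analysed, grouped and numbered by their titles. Per the submitters' processing notes, the authors used CASAVA 1.4 and HISAT2. The counting tool and its strand setting, the genome build and the annotation are not stated in those notes or the labels. Each deposited library column is a signal: read counts per gene that the authors had scaled by 1 size factor for that library. In every library 100% of values were whole multiples of the smallest positive one, within 0.001 reads, so whole reads could be recovered. Deposited beside them, per the file headers, are the authors' log2 fold changes and p-values, with no tool named, and gene lengths in bases.

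The main test was limma 3.58.1 with a trended prior, on log2(value + 1), for genes reaching 1 in 2 or more libraries, adjusted by Benjamini-Hochberg with a threshold of 0.05. All 6 members passed that filter. The scale understates the change of low genes. As alternatives, DESeq2 1.42.0 and edgeR 4.0.16 took the recovered reads. DESeq2 leaves the adjusted p of low genes as NA, so it tested fewer genes. limma, DESeq2 and edgeR were also run on simulated counts, with the outcome not given here, and limma-voom was not. R 4.3.3, Python 3.11.15 and matplotlib 3.10.9 were used.

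The members and the gene lists were chosen with earlier results of these data known. Genes named were the 6 members, Spry3, Mettl3, the up to 4 called genes of each pathway list with the smallest DESeq2 adjusted p, its 2 most abundant genes not called, and the 3 nearest profiles, unnamed and locus-type names left out. Cell type markers were named outside that rule. Ier3, Plaur, Fos, Etv1, Egr1 and Mycbp2, which overlaps Spry2, were named after their values or positions were seen. A gene on more than 1 list was described once. List symbols that the table does not hold were not analysed here.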

Additional observations from a re-analysis of the deposited data

How the results depend on the processing

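Over 20 alternatives, 5 of them chosen after seeing the data, the log2 fold changes ranged from 1.405 to 1.623 for Spry1, 0.88 to 1.25 for Spry2, 0.45 to 0.73 for Spry4, 0.24 to 0.51 for Spred1, 0.24 to 0.43 for Spred2 and 0.32 to 0.53 for Spred3. Their sign is fixed by groups that do not overlap and says nothing about stability. Genes called over the whole table numbered 3 in limma. They were 0 with a pseudocount of 0.1, 5 with at least 1 CPM in all 4 libraries, 5 with limma-voom, 5 with edgeR, 24 with robust empirical Bayes and 318 with DESeq2. Without 1 library limma called 0 in each case, and DESeq2 called 56 to 1547 (1547 and 217 without lv_nc replicates 1 and 2, 56 and 61 without lv_Mettl3 replicates 1 and 2). Members called numbered 0 in limma, 2 in DESeq2 and 0 to 3 in DESeq2 without 1 library. DESeq2 called 8 ERK-induced transcripts (14, 7, 3 and 2 without each library in that order), 2 ligands (0 to 3), 1 receptor (0 to 1) and 1 other feedback inhibitor (1 to 2). It called 0 adaptors (0 to 1), 0 core genes (0 to 3) and 0 partners (0 to 2). The cause of these differences was not tested. Without length scaling the Sprouty share of the family level was 59.9%, beside 47.8% with it, since Spry4 has the longest deposited gene length. Replicate numbers are shared by title only, and deviations of same-numbered libraries from their group means correlated at 0.33 over 10051 genes, with 1 independent value for 2 pairs. With a replicate block limma called 3 genes and 0 members. DESeq2 with the replicate block called 272 genes, 2 members, 8 ERK-induced transcripts, 2 ligands, 1 receptor and 1 other feedback inhibitor. Counts of 66 to 80 reads limit the precision of Spry1 in lv_nc.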
